A study of Mus musculus with 2 samples.

Results

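Acta2, Tagln, Pdgfra, Pdgfrb, Postn, Dcn, Lum, Fn1, Tnc and Fap, 10 genes by which myofibroblasts, pericytes and fibroblasts are recognised, were compared between 2 bulk RNA-seq libraries of mouse kidney. The genes were chosen by name, with earlier results of these data known. Of the 10 genes, 9 had a row among the 20002 genes of the deposited table, and Fap was not analysed here. The study addressed what loss of Regnase-2, an RNA-degrading protein encoded by Zc3h12b, does to the proximal tubule and the kidney, and the mice labelled Reg-2 CKO had received adeno-associated virus serotype 9 (AAV9) with a short hairpin RNA (shRNA) against it by tail vein at 11 weeks of age. This is a knockdown from a vector that prefers the proximal tubule and not a deletion of the gene, and a promoter that restricts the shRNA to a cell type is not given in the sources used here. Control mice received AAV9 described in one place as an empty vector and in another as control shRNA, and the kidneys (whole by the labels, left by the methods) were taken at 14 weeks of age by one statement and at 16 weeks by another, with no other treatment. Each group was 1 library, and whether that was 1 mouse or a pool is not stated.

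The deposited values are whole numbers and none is below 35 (control) or 51 (CKO), so a floor of 34 and 50 was taken off and the remainder is called reads. The totals were then 38851231 (control) and 43588721 (CKO) reads. Ratios use CKO reads times 0.667, which is the median gene's ratio of control to CKO reads, and are given either as a fold or as a log2 ratio with 1 read added to each side. The interval after a fold is the 95% Clopper-Pearson interval, which covers counting error only, and reads that PCR copied from 1 molecule are not independent. This interval and the exact intervals below hold only if the reads are unnormalized counts, and the authors name the deposited values normalized counts. With 1 library per group no difference has a replicate check, and a difference between individual mice cannot be told apart from the difference between the groups. Zc3h12b, the targeted gene, had 47 control reads against 59 in the second library, a log2 ratio of -0.25 with an interval of -0.83 to 0.33. It changed sign to 0.16 with equal library totals and was at -0.57 with the trend with mean reads removed. In the main setting the counting interval holds 0 and does not reach a 2-fold fall, so the RNA of the target does not check the labels. The study reported less Regnase-2 in proximal tubules by immunofluorescence, a protein measure unlike RNA of whole kidney. The second library is named below as the CKO-labelled library.

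Myofibroblasts are contractile, matrix-producing cells that appear in the kidney interstitium after injury. They carry alpha smooth muscle actin, the product of Acta2, and arise largely from resident fibroblasts and pericytes, which bear the platelet-derived growth factor (PDGF) receptors encoded by Pdgfra and Pdgfrb. The matrix they lay down holds fibronectin, collagens, proteoglycans such as decorin and lumican, and the matricellular proteins tenascin-C and periostin, which are scarce in the healthy adult kidney.

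The 9 genes were all higher in the CKO-labelled library, under the main and each alternative scaling. At least 2-fold higher were 8 of 9, against 13.4% of the 17469 genes kept for having 10 or more scaled reads in 1 library (2334 genes). At least 2-fold lower were 0 of 9, against 5.35% of the kept genes (934 genes). The median log2 ratio of the 9 genes was 1.85, and that of all kept genes was 0.022. Together they held 6632 control reads, 0.0171% of that library, and 29271 reads, or 0.0672%, of the CKO-labelled library. The smallest of the 9 in the control, Postn, had 45 reads there, so none of them passed the filter on low reads through the CKO library alone. In bulk kidney, more cells of a type and more RNA per cell cannot be told apart. With equal totals the median of all kept genes moved to 0.44 and that of the 9 genes to 2.27, and among all genes past 2-fold the higher share went from 71.4% to 89.9%.

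**Figure D1:**
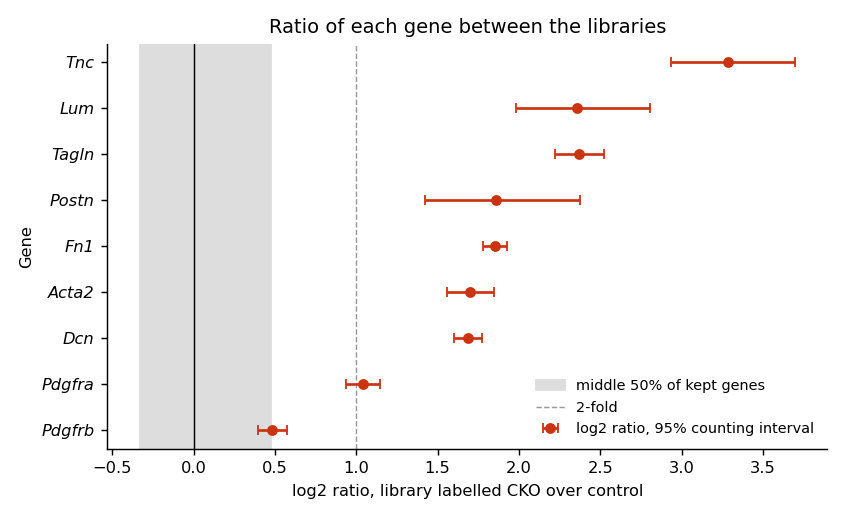
log2 ratio of the CKO-labelled library over the control (x axis) for each of the 9 genes (y axis), with bars for the 95% counting interval of 1 library per group. The grey band holds the middle 50% of the kept genes, from -0.33 to 0.48. Pdgfrb lies at the edge of that band at 0.48, and Tnc lies farthest from it at 3.28.

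Genes with few control reads passed 2-fold more often than genes with many, in part because a gene with under 10 reads in the control was kept only if it was higher in the other library. Among kept genes with control reads under 100, 32.6% were at least 2-fold higher, and so were 3 of 3 of the genes studied, Postn, Lum and Tnc. From 100 up to under 1000 control reads the share was 8.84%, with Acta2, Tagln and Pdgfra making 3 of 3. Of genes with 1000 or more control reads only 1.16% were at least 2-fold higher, and Dcn and Fn1 were 2 of the 3 genes studied in that range, with Pdgfrb as the third. Dcn and Fn1 thus stood among 68 such genes of 5886.

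**Figure D2:**
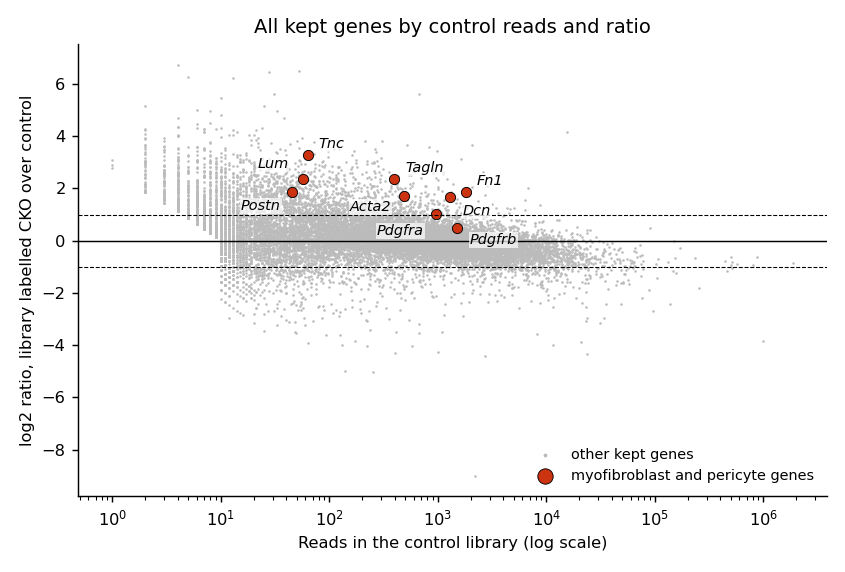
Each point is 1 of the 17469 kept genes, by reads in the control library (x axis, log scale) and log2 ratio of the CKO-labelled library over the control (y axis), with dashed lines at 2-fold and the 9 genes in red. The spread of the grey points narrows toward the right, where Fn1 at 1809 control reads and Dcn at 1291 lie above nearly all genes of like depth.

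Acta2 and Tagln encode alpha smooth muscle actin and transgelin, proteins of the contractile apparatus that smooth muscle cells and myofibroblasts share. Acta2 (gene ID 11475; minus strand of chromosome 19, 34240336 to 34255585 in GRCm38.p6) had 488 control reads against 2379 in the CKO-labelled library. It was 3.25-fold higher, with an interval of 2.95 to 3.59. Tagln (gene ID 21345; minus strand of chromosome 9, 45929628 to 45936058) had 398 and 3087 reads and was 5.17-fold higher, with an interval of 4.66 to 5.75. The value of Tagln carries an uncertainty, because 33.2% of the 1496 windows of 100 bases along its transcript lie in exons of Pcsk7 or Gm48529 on the opposite strand, and the strand setting of the counting is not given in the sources used here. Pcsk7 itself had 2028 and 2449 reads, a log2 ratio of -0.31 that changed sign to 0.11 with equal totals.

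Acta2 is a textbook target of serum response factor (SRF), which binds the CArG box, and sequence before one of its starts is shown for that reason. No window of the 9 genes held an exact CArG box. Of the 9 genes, 4 had windows of 250 bases before to 50 after a start in the RefSeq promoter table of GRCm38.p6 (Acta2, Pdgfra, Postn and Tnc, 6 windows in all), and the motif occurs in 1.63% of the 32851 windows of that table. With 1 departure allowed, a search chosen after the windows were seen, 2 of the 6 windows and 21.1% of all windows held one. The motif reads the same on both strands. In Acta2 there were 2 such sites, 84 and 34 bases before the RefSeq start, at chr19:34255438-34255467 and chr19:34255388-34255417 on the minus strand, printed here with the site in capitals. Both stretches lie inside the span of Acta2 in RefSeq, which runs to 34255585, and within exon annotated to Acta2 in GENCODE M21, so they precede 1 start and are not upstream of the gene.
Acta2 site farther from the start: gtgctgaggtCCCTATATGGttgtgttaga
Acta2 site nearer to the start: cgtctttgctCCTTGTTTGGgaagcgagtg

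The other genes of the smooth muscle contractile apparatus lay nearer to 0 than this pair. Of 12 such genes kept, 0 were past 2-fold either way, where 13.4% of all kept genes were higher and 5.35% lower. The median log2 ratio of these 12 was 0.43. Tpm1 (tropomyosin) was the highest at 0.999, with 2370 and 7108 reads, just under the threshold. Lmod1 (leiomodin) was the lowest at -0.43, with 81 and 90 reads, and it turned to 0.28 on the deposited values. Equal totals moved the median to 0.84 and the number at least 2-fold higher to 4 of 12, where 3870 of all 17682 kept genes were. Myh11, the heavy chain of smooth muscle myosin and a marker of mature smooth muscle, was at 0.025 on 612 and 934 reads. Within a library no scaling enters, although the floor does: Acta2 had 0.797 reads for each Myh11 read in the control and 2.55 in the CKO-labelled library. That ratio was 3.19 times higher in the latter, with an exact 95% interval of 2.77 to 3.69, and the same quantity for Tagln over Myh11 was 5.08 times higher, with an interval of 4.38 to 5.90. Myh11 was the next to lowest of its list. Against Des (desmin), at 0.43 near the median of the list, Acta2 was 2.41 times higher, with an interval of 2.08 to 2.80. These and the other within-library pairs were chosen after their values were seen.

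SRF and its coactivators showed 0 of 4 genes past 2-fold and a median of 0.37, or 0.33 over the 3 kept by their control reads. Srf itself had 982 and 1516 reads, a log2 ratio of 0.041. Mrtfa and Mrtfb, which carry signals from actin to SRF, were at 0.41 and 0.33. Myocd, the coactivator found in muscle, was kept only through the CKO-labelled library and was at 0.45 on 8 and 17 reads, with an interval from 0.58-fold to 3.79-fold that leaves its direction undetermined.

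Fn1 encodes fibronectin, the glycoprotein on which collagen fibrils are first laid. Fn1 (gene ID 14268; minus strand of chromosome 1, 71585473 to 71653280) had 1809 control reads against 9790 in the CKO-labelled library, the most of the 9 genes in both. It was 3.61-fold higher, with an interval of 3.43 to 3.80. Of its windows of 100 bases, 1.83% lie in exons of Apol7d on the opposite strand. Tnc encodes tenascin-C, a matricellular protein of healing and remodelling tissue. With 63 reads in the control and 933 in the other library, Tnc (gene ID 21923; minus strand of chromosome 4, 63959785 to 64047015) had the highest fold of the 9 genes, 9.87, with an interval of 7.65 to 13.0. It ranked 114 from the top among the 17469 kept genes. Postn encodes periostin, which joins tenascin-C, fibronectin and collagen. Postn (gene ID 50706; plus strand of chromosome 3, 54359267 to 54391041) had 45 and 249 reads and was 3.69-fold higher, and its few control reads left a wide interval of 2.68 to 5.19.

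Sequences before a start of Postn and of Tnc are shown because these matricellular genes had few control reads and have entries in the RefSeq table. TATAAA, searched on both strands and marked in capitals, was in 1 of 2 windows of Postn, 26 bases before its downstream start, and in both windows of Tnc, which overlap and share the site, 126 bases before the upstream start. It occurs in 13.6% of all windows. Tnc also held a CArG box with 1 departure, CCTATATAAG, 31 bases before the downstream start and within exon annotated to Tnc in GENCODE M21. The stretches are chr3:54360857-54361106 on the plus strand and chr4:64047016-64047265 on the minus strand of GRCm38.p6, each the 250 bases before a start. The Postn stretch lies inside the span of Postn in RefSeq, which begins at 54359267, so it precedes 1 start and is not upstream of the gene. A match describes the letters and is not a measured site.
Postn upstream of the downstream start: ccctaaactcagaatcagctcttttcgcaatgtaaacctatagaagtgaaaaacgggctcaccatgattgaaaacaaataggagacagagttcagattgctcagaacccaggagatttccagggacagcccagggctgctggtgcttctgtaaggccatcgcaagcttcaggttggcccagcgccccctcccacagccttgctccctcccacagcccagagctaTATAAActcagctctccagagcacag
Tnc upstream of the upstream start: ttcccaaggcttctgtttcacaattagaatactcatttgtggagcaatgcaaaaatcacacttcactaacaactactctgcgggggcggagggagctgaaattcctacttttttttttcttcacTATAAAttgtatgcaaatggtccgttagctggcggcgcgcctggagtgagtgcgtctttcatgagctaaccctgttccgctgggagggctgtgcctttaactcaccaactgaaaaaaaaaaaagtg

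Other matricellular genes, which encode secreted proteins that modulate how cells hold to matrix, were higher as a group. Of 13, 11 passed 2-fold higher and 0 passed it lower, against 13.4% and 5.35% of all kept genes. The median log2 ratio of the list was 1.55. Of the 11 that the control reads alone kept, 9 were past 2-fold, also at a median of 1.55. Ccn1 was the highest at 2.86, with 642 and 7006 reads. Tnxb, which encodes tenascin-X of loose connective tissue, was the lowest at 0.72, with 408 and 1007 reads, although with no floor taken off but scaled Smoc1, with 5 control reads, was lower at 0.30. The 2 tenascins therefore parted: Tnc had 0.154 reads for each Tnxb read in the control and 0.927 in the CKO-labelled library, 6.0 times higher with an exact interval of 4.52 to 8.07, or 4.24 times with no floor taken off.

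Interstitial collagens had 10 of 12 genes at least 2-fold higher (13.4% of all kept genes), 0 lower (5.35%) and a median of 1.67. Col12a1, whose product decorates collagen I fibrils, was the highest at 3.0 with 258 and 3117 reads, and Col5a3 was the lowest at 0.60 with 141 and 321 reads. The genes that crosslink collagen and elastin or build microfibrils had 12 of 16 at least 2-fold higher, 0 lower and a median of 1.27, or 11 of 15 and 1.16 over those kept by their control reads. With no floor taken off but scaled, 9 of 16 passed. Ltbp2, a microfibril protein of the family that binds latent transforming growth factor beta (TGF-beta), was the highest at 4.83 with an interval of 4.07 to 6.03, on 10 and 468 reads. It stayed the highest with no floor taken off but scaled, at 2.96, which is below that interval. Fbln5, needed for elastic fibres, was the lowest at 0.037 with 4202 and 6467 reads.

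Matrix adhesion receptors, the integrins and syndecan-4 through which cells hold fibronectin and tenascin, had a lower median than the collagens. Of 10, 2 passed 2-fold higher (20%, near the 13.4% of all kept genes), 0 lower, at a median of 0.47. Itga4, which leukocytes also use to bind fibronectin, was the highest at 2.24 with 43 and 311 reads. The lowest was Itgb6, an epithelial integrin subunit, at -0.62 with 3401 and 3316 reads. With equal totals the number past 2-fold was 4 of 10, where 3870 of all 17682 kept genes passed, and with no floor taken off but scaled it was 1 of 10.

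**Figure D3:**
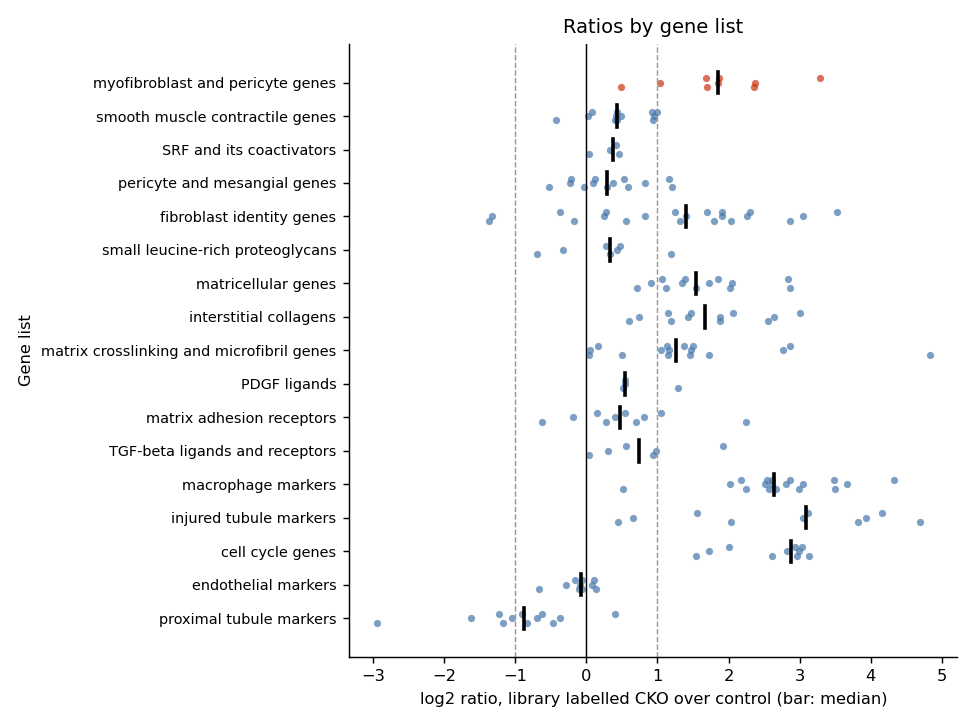
Each point is a kept gene of the list named on the y axis, by its log2 ratio of the CKO-labelled library over the control (x axis), with 1 library per group, dashed lines at 2-fold and a black bar at the median. The myofibroblast and pericyte genes (red, median 1.85) lie with the collagens and matricellular genes, and to the right of the contractile genes (median 0.43) and the pericyte and mesangial genes (median 0.29).

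Dcn and Lum encode decorin and lumican, small leucine-rich proteoglycans that bind collagen fibrils and limit their width. Dcn (gene ID 13179; chromosome 10, 97479500 to 97518163) and Lum (gene ID 17022; chromosome 10, 97565501 to 97572703) are neighbours on the plus strand, with 47337 bases and 0 protein-coding genes between them in RefSeq. Dcn had 1291 control reads against 6232 in the CKO-labelled library, 3.22-fold higher with an interval of 3.03 to 3.42. Lum, with 57 and 445 reads, was 5.20-fold higher with an interval of 3.94 to 6.98. The neighbours differed, to an extent that depends on the floor: Lum had 0.0442 reads for each Dcn read in the control and 0.0714 in the CKO-labelled library, 1.62 times higher with an exact interval of 1.22 to 2.18. It was 1.15 times higher with no floor taken off, below that interval.

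Of 7 other small leucine-rich proteoglycans, 1 passed 2-fold higher (14.3%, near the 13.4% of all kept genes), 0 lower, at a median of 0.34. Bgn, which encodes biglycan, the closest relative of decorin, was the highest at 1.20 with 4593 and 15789 reads. Fmod (fibromodulin) was the lowest at -0.70 with 192 and 177 reads, and it turned to 0.0063 on the deposited values. Dcn, Lum and Bgn thus stood above the rest of the family, where Ogn (osteoglycin) had 964 and 2001 reads. Set against Ogn within each library, Dcn was 2.33 times higher in the CKO-labelled library, with an exact interval of 2.11 to 2.57.

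Pdgfra and Pdgfrb encode the PDGF receptors, Pdgfra being typical of fibroblasts and Pdgfrb of pericytes, mesangial cells and fibroblasts. Pdgfra (gene ID 18595; plus strand of chromosome 5, 75151322 to 75198206) had 968 control reads against 2986 in the CKO-labelled library. It was 2.06-fold higher, with an interval of 1.91 to 2.21 that reaches below 2-fold, and it was under the threshold, at a log2 ratio of 0.88, once the trend with transcript length was removed. Its exons overlap Mir7025 on the same strand and Gm42802 and Gm42803 on the opposite strand, although 0 of the 6735 windows of its longest transcript were shared. Pdgfrb (gene ID 18596; plus strand of chromosome 18, 61045127 to 61085067) had 1513 and 3170 reads and was 1.40-fold higher, with an interval of 1.31 to 1.49. It was the one gene of the 9 under 2-fold, at percentile 75.2 of the log2 ratios of kept genes, and passed 2-fold only on the deposited values, at 1.06. The receptors differed from each other beyond counting error: Pdgfra had 0.640 reads for each Pdgfrb read in the control and 0.942 in the CKO-labelled library, 1.47 times higher with an exact interval of 1.34 to 1.62.

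The PDGF ligands had 1 of 4 genes at least 2-fold higher and a median of 0.55, and with 4 genes that count cannot be told from the 13.4% of all kept genes. Pdgfb, a ligand of both receptors made by endothelium and macrophages, was at 1.29 on 567 and 2083 reads. Pdgfa, Pdgfc and Pdgfd lay close together at 0.51, 0.55 and 0.55. All 4 passed 2-fold on the deposited values, at a median of 1.10, in a setting where the median of all 20002 genes was itself 0.57 and 3574 of them passed.

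Pericyte and mesangial genes other than Pdgfrb had 2 of 13 at least 2-fold higher (15.4%, against 13.4% of all kept genes), 0 lower and a median of 0.29. That share is near the one over all genes and is no result about the list. Notch3, a receptor of mural cells, was the highest at 1.20 with 363 and 1255 reads. Kcnj8, a potassium channel subunit of pericytes, was the lowest at -0.53 with 323 and 335 reads, and it turned to 0.11 on the deposited values. With equal totals 4 of 13 were at least 2-fold higher, where 3870 of all 17682 kept genes were. The median of the list was then 0.71, and that of all kept genes 0.44. Against Rgs5, a pericyte gene with 1564 and 3524 reads, Pdgfrb did not differ between the libraries beyond counting error, at 0.930 times with an exact interval of 0.853 to 1.01. Rgs5, at 0.59, was itself above the median of its list. Against Cspg4, with 836 and 1359 reads and a log2 ratio of 0.12, Pdgfrb was 1.29 times higher in the CKO-labelled library, with an exact interval of 1.16 to 1.43.

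Fibroblast identity genes had a higher median than the pericyte genes, at 1.40. Of 21, 13 were at least 2-fold higher and 2 lower, against 13.4% and 5.35% of all kept genes. Over the 18 kept by their control reads, 10 were higher and the median was 1.28, and with no floor taken off but scaled 11 of 21 passed. Medag, at 3.53 on 4 control reads against 85, was kept only through the CKO-labelled library, so its first place is not a result, and with no floor taken off but scaled it was at 1.23. Which gene was the highest depends on the floor. Among those kept by their control reads it was Mfap4 at 2.87, on 14 and 163 reads, and with no floor taken off but scaled it was Cdh11 at 1.83. The 2 genes that were lower were Clec3b at -1.37, with 105 and 60 reads, and Nt5e at -1.33, with 6667 and 3972 reads. Nt5e, named after its value was seen, encodes CD73, which the proximal tubule brush border also carries. With equal totals neither was past 2-fold, and with no floor taken off but scaled Clec3b was not.

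TGF-beta ligands and receptors, the best known inducers of the myofibroblast state, had 1 of 6 genes at least 2-fold higher (16.7%, near the 13.4% of all kept genes), 0 lower and a median of 0.75. Tgfb2 was at 1.93 on 70 and 403 reads. Tgfb1 and Tgfb3 were just under the threshold at 0.98 and 0.94, with 288 and 856 reads for Tgfb1 and 59 and 171 for Tgfb3. The receptors were nearer to 0, with Tgfbr1 at 0.55, Tgfbr3 at 0.31 and Tgfbr2 at 0.036. With equal totals 3 of 6 were past 2-fold. In that setting all kept genes had a median of 0.44, and 3870 of 17682 were at least 2-fold higher. Of the 5 peptidases related to Fap, 0 were past 2-fold and the median was -0.031, which changed sign to 0.39 with equal totals. They were Dpp4 at 0.15, Prep at 0.062, Dpp9 at -0.031, Dpp8 at -0.20 and Dpp7 at -0.78, and they say nothing of Fap.

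Levels of the 9 genes were set in order as reads per kb of the longest GENCODE M21 transcript. In the control library Dcn had the highest level, at 734 reads per kb. It was followed by Pdgfrb at 279, Tagln at 250, Acta2 at 240, Fn1 at 218 and Pdgfra at 142, with Lum at 23.3, Postn at 14 and Tnc at 8.87 far below. In this order Tagln and Acta2, and Acta2 and Fn1, did not differ beyond counting error. After scaling, the CKO-labelled library kept Dcn first at 2363 reads per kb. Tagln was next at 1290, Fn1 and Acta2 did not differ beyond counting error at 785 and 779, and Pdgfrb, next after Dcn in the control, now stood below Acta2 at 390. Pdgfra at 291, Lum at 121, Tnc at 87.5 and Postn at 51.8 closed the order, so that Tnc and Postn exchanged places.

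**Figure D4:**
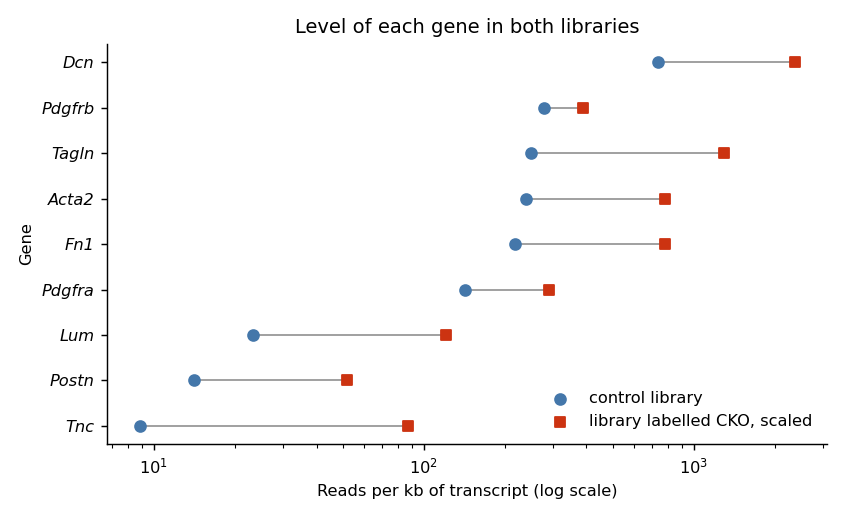
Level of each of the 9 genes (y axis) in reads per kb of transcript (x axis, log scale) in the control library (blue circles) and, after scaling, in the CKO-labelled library (red squares), 1 library each. Every red square lies to the right of its blue circle, and the line between them is shortest for Pdgfrb, from 279 to 390.

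The order of the folds was less certain than that of the levels. Tnc stood above Lum by 1.90 times with an exact interval of 1.28 to 2.81. From Lum through Tagln, Postn, Fn1 and Acta2 to Dcn, no gene differed from the next beyond counting error. Only neighbours in the order were compared there, and genes farther apart could differ. The interval of Tagln, 4.66 to 5.75, lay above those of Fn1, Acta2 and Dcn. The places of Lum and Postn also depend on the floor. Lum went, with no floor taken off, from 1.01 to 0.749 times Tagln, so that Tagln came next after Tnc, and Postn from 1.02 to 0.709 times Fn1. Dcn stood above Pdgfra by 1.56 times, with an interval of 1.42 to 1.72, and Pdgfra above Pdgfrb as given for the receptors.

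**Figure D5:**
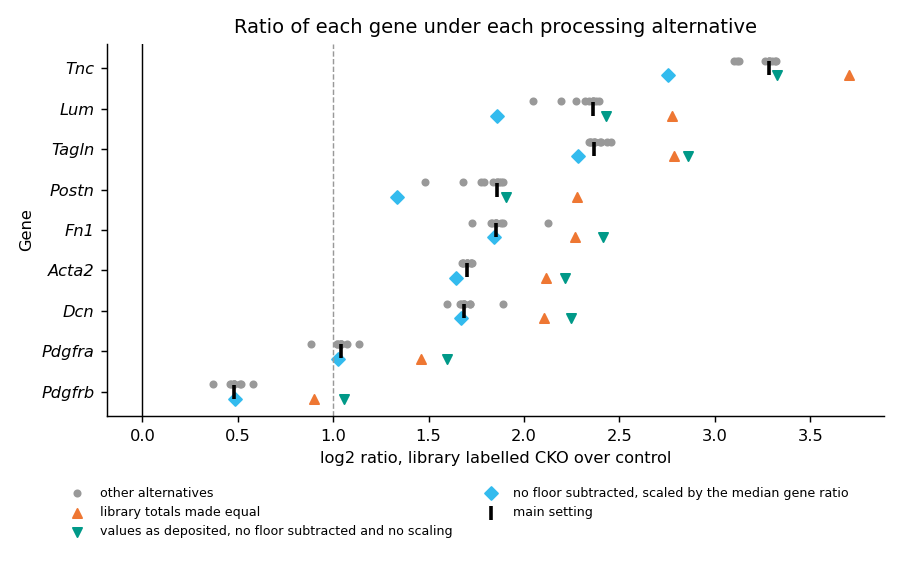
log2 ratio of each of the 9 genes (y axis) in the main setting (black bars) and under each processing alternative (points), as the CKO-labelled library over the control (x axis), with a dashed line at 2-fold. Every point lies above 0, and the settings that leave the libraries unscaled or make their totals equal lie to the right, up to 3.70 for Tnc.

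Markers of other cell types were read in the same 2 libraries, some of them (Spp1, Vim, Cd74, Lyz2, Mki67 and Plvap) picked after their values were seen, and their part in the differences above was not tested. Proximal tubule markers were present, as the labelled tissue requires, with Slc27a2, Slc34a1 and Lrp2 holding the most reads in the control at 157696, 147064 and 103389. Of these 12 markers, 5 were past 2-fold lower and 0 past 2-fold higher, against 5.35% and 13.4% of all kept genes. The median of the 12 markers was -0.87, from Slc7a13 at -2.95 to Slc5a12 at 0.41. That median was -0.45 with equal totals, -0.28 as deposited and -0.38 without the mean-reads trend. These markers held 1.91% of the control reads and 1.30% of the reads of the CKO-labelled library. With equal totals 2 of 12 were past 2-fold lower, where 437 of all 17682 kept genes were. Markers of injured tubule cells had 8 of 10 at least 2-fold higher, 0 lower and a median of 3.08, and held 0.0697% and 1.07% of the reads. Spp1 (osteopontin) had the most reads of them, 15360 and 412220, Krt19 was the highest at 4.69 and Krt8 the lowest at 0.45. Spp1 was the highest, at 4.17, with no floor taken off but scaled. Vim, in this list, is an intermediate filament of fibroblasts as well, and had 864 and 3828 reads.

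Macrophage markers had 17 of 18 at least 2-fold higher (13.4% of all kept genes), 0 lower (5.35%) and a median of 2.64. They held 0.0189% and 0.137% of the reads. Over those kept by their control reads it was 16 of 17. Cd74 had the most reads of them, 2610 and 23956, Ms4a7 was the highest at 4.33 on 6 control reads, kept only through the CKO-labelled library, and Csf1r the lowest at 0.51. Lyz2 was the highest, at 3.59, with no floor taken off but scaled. Cell cycle genes had 10 of 10 at least 2-fold higher and a median of 2.88, from Birc5 at 1.55 to Cdk1 at 3.13, with 326 reads in all in the control and 3162 in the CKO-labelled library and the most in Mki67. Over those kept by their control reads it was 8 of 8. With no floor taken off but scaled, 9 of 10 passed, Mki67 was the highest at 2.60 and the median was 1.45, and as deposited the median was 2.02. Which cells these cell cycle reads came from was not tested. Endothelial markers stayed within 2-fold, 10 of 10, at a median of -0.081, which changed sign to 0.34 with equal totals. They ranged from Kdr at -0.67 to Emcn at 0.14, and Plvap had the most reads, 3854 and 5411.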

How the data were processed

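Total RNA of kidney was made into 1 library per group with the TruSeq Stranded mRNA kit. By the methods and the submitters' notes, the authors used STAR 2.7.3a for alignment to mm10, HTSeq for counting and DESeq2 for normalization. The tool edgeR is listed as well, and which tool gave the deposited values is not known here. With the floor taken off, the columns still needed the factor of 0.667. The authors' FPKM from Cufflinks 2.2.1 is not in the file. The unit of the deposited values is taken here as a score, since the authors name them normalized counts but each column sits on its own floor (34 for control, 50 for CKO). In 371 control and 285 CKO genes the value equalled the column minimum, taken here as 1 read. Whether it stands for 0 reads is unknown.

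Genes and lists were chosen with earlier results of these data known. A log2 ratio was log2((scaled CKO reads + 1)/(control reads + 1)). A gene was kept if either library had 10 or more scaled reads, and calls used 2-fold. A gene with under 10 control reads was thus kept only if higher in the CKO library, so list counts are also given over genes kept by their control reads. No test between groups was possible. Ratios within a library were compared by the exact conditional odds ratio. The naming rule took all members, the targeted gene, the highest and lowest gene of each list, every gene of lists of up to 6 and the 3 proximal tubule markers of most reads. Of urothelium markers, the 4 kept only through the CKO library are not named. Outside the rule, Myh11, Ogn, Rgs5, Cspg4, Des, Mfap4, Cdh11, Smoc1, Lyz2, Vim, Nt5e, Spp1, Cd74, Mki67, Plvap and Pcsk7 were named after their values were seen.

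Alternatives were pseudocounts of 0.1 and 10, no filter or 50 reads, thresholds of 1.5-fold and 4-fold, equal totals, equal upper quartiles, a median of 0, the column minimum subtracted, and no floor subtracted with and without scaling. Chosen after the data were seen were removals of the trend with mean reads, transcript length or GC content (medians of 20 bins) and within-library ratios with no floor or the column minimum subtracted. Lengths came from the longest GENCODE M21 transcript, found for 89.1% of symbols, and positions from RefSeq GRCm38.p6, matched by gene ID for 19959 of 20002 genes. One list of other cell markers is not reported. The steps were tested on simulated data. The software was Python 3.11.15 with scipy 1.17.1, pandas 2.3.3, numpy 2.4.6 and matplotlib 3.10.9.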

Additional observations from a re-analysis of the deposited data

How the results depend on the processing

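Each of the 9 genes stayed higher in every setting. Of their 117 ratios, 94 held, 23 moved and 0 changed sign. At 4-fold 3 of 9 passed. The median of the 9 was 2.27 with equal totals, 1.68 at a pseudocount of 10, 2.24 as deposited, 1.67 with no floor taken off but scaled, and 1.73 without the length trend. Among all genes, the numbers higher and lower were 3870 and 437 with equal totals, 3574 and 131 as deposited, 1196 and 463 with no floor taken off but scaled, 3801 and 2423 at 1.5-fold, and 749 and 166 at 4-fold. With 50 reads required, 617 were lower. The higher share of these, 71.4% in the main setting, was 89.9% with equal totals, 96.5% as deposited and 60.9% without the mean-reads trend.

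With equal totals Acta2 was 2.12, Tagln 2.79, Pdgfra 1.46, Pdgfrb 0.90, Dcn 2.10, Fn1 2.27 and Tnc 3.70. As deposited, Acta2 was 2.22, Tagln 2.86, Pdgfra 1.60, Pdgfrb 1.06, Dcn 2.24 and Fn1 2.42. With no floor taken off but scaled, Postn was 1.34, Lum 1.86 and Tnc 2.76. Without the mean-reads trend Pdgfrb was 0.58, Dcn 1.89 and Fn1 2.12. Without the length trend Pdgfra was 0.88, Pdgfrb 0.37 and Fn1 1.73, and without the GC trend Dcn was 1.60.

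Medians near 0 changed sign. Fap relatives were at 0.39 with equal totals, 0.55 as deposited and 0.072 without the mean-reads trend. Endothelial markers were at 0.34, 0.50 and 0.099 in the same settings. Other nephron segments were at -0.0050 with the median set to 0 and -0.0020 with the column minimum subtracted, but moved further to 0.44 with equal totals, 0.60 as deposited and 0.46 without the mean-reads trend. Zc3h12b was at 0.16 with equal totals, 0.42 as deposited and -0.57 without the mean-reads trend. With no floor taken off but scaled, the median of cell cycle genes was 1.45, where the main setting gave 2.88. The ratio of Lum to Dcn, 1.62 times higher, was 1.15 times with no floor taken off, and that of Tnc to Tnxb 4.24 in place of 6.0. Apart from the scale itself, the cause was not tested. With 1 library in each group, a paired analysis was not possible.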

Other observations

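Markers of tissues beside the nephron were few. Urothelium markers, of the lining of the renal pelvis, held 50 control reads against 265 in the CKO-labelled library. Of 5 genes, 4 had under 10 control reads and were kept only through the CKO-labelled library, so their ratios had to be above 1 and are not counted. Upk1a, with 25 and 71 reads, was at 0.89 on the log2 scale and not past 2-fold. Mesothelium markers, of the capsule surface, held 38 and 193 reads. Upk3b was at 1.78 on 30 and 158 reads, and at 1.12 with no floor taken off but scaled. Msln, with 8 control reads, was kept only through the CKO-labelled library. Star, of the adrenal cortex, was at 0.33 on 37 and 70 reads. Mylpf, of skeletal muscle, was at 1.02 on 10 and 32 reads, with an interval from 1.02-fold to 4.87-fold. It was under 2-fold at 0.88 as deposited and at 0.32 with no floor taken off but scaled. Adipocyte markers were not analysed here. These cells were not tested as a source of any reads.

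T cell markers held 44 control reads against 267 in the CKO-labelled library. The 2 genes kept by their control reads were Cd3g at 2.22, on 13 and 96 reads, and Cd4 at 1.70, on 17 and 86. Cd3e and Cd8a were kept only through the CKO-labelled library. With no floor taken off but scaled, 1 of the 4 was past 2-fold and their median was 0.76. Markers of nephron segments beyond the proximal tubule had 0 of 10 past 2-fold and a median of 0.017, from Calb1 at -0.58 to Aqp2 at 0.79. That depends on the scaling, with 2 of 10 past 2-fold and a median of 0.44 at equal totals, and 3 of 10 and 0.60 as deposited. Of all genes, 3870 of 17682 were at least 2-fold higher at equal totals and 3574 of 20002 as deposited.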
